A study of Cricetulus griseus with 19 samples.

Results

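The G1/S and replication licensing genes followed here are Cdk2, Ccnd1, Cdc6, Cdt1, Cdc45 and Pcna. They were chosen by symbol, and each symbol matched exactly 1 of the 46718 transcript targets, so the set holds 6 of 334 targets that carry the symbol of a protein-coding gene. RNA was sequenced from 19 libraries of the Paradaux line, a CHO-K1 derivative of the Chinese hamster, an ovary-derived line in long use for protein production. The conditions were the parental line (1 library), long-term uncontrolled growth (4), long-term negative feedback (7) and long-term paradoxical feedback (7). As background, the Paradaux line was built with a synthetic circuit for control of cell number, and in paradoxical control 1 signal both promotes and limits the population. Before harvest every culture grew for 2 days below 80% confluence. The labels used here give no agent, no length of culture and no clone, and do not say whether the parental library carries the circuit. Nor do they state that cultures with different numbers were kept apart, so a p-value here reflects the spread among the samples, which may be technical. No marker of the line fixed for a check of its identity matched a target, so that check was not made.

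A cell commits to division in G1, when cyclin D with its kinase partners starts to inactivate the retinoblastoma protein and cyclin E with CDK2 completes the step. Release of E2F factors then raises the transcription of genes for DNA replication, among them those of Cdc6, Cdt1, Cdc45, Pcna and Cdk2. Licensing loads the MCM helicase on replication origins by the origin recognition complex with Cdc6 and Cdt1. At the start of S phase kinases recruit Cdc45 and GINS to turn the loaded helicase on, and PCNA then rings the DNA as the clamp of the replicative polymerases. Bulk RNA averages all cells of a culture, so more cells in S phase and more RNA per cell cannot be told apart.

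The members rest on single RefSeq records. Cdk2 (NM_001244027.1, 1041 nt), Cdt1 (NM_001246718.1, 1662 nt) and Pcna (NM_001246768.1, 890 nt) had whole estimated counts in all 19 libraries, at 64 to 791, 66 to 593 and 759 to 3973 counts. Ccnd1 (NM_001244048.1, 888 nt), Cdc45 (NM_001246790.1, 1849 nt) and Cdc6 (NM_001244278.1, 1848 nt) shared reads with other targets, because the quantifier divides a read among the transcripts that it matches. A low value of these 3 is the level of 1 record and not that of the gene. The lengths of Cdk2, Cdt1, Ccnd1 and Cdc6 are multiples of 3, which fits records without UTRs. Each library held between 9.91 and 13.2 M estimated counts. The share of counts on short targets, those under 800 nt, was 6.12 to 7.22% in negative feedback cultures 3 to 7, against 14.1 and 13.3% in cultures 1 and 2 of that condition. It was 12.2 to 13.4% with uncontrolled growth, 8.50 to 12.4% with paradoxical feedback and 11.8% in the parental library. Negative feedback cultures 3 to 7 thus stood apart from cultures 1 and 2, and the results on members are given with and without them. These sets were made with the values of these libraries known, so fits without either set are a description and no test.

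Per unit of length, Pcna was the most abundant member in every condition, and the order of the others differed between conditions. On the TPM scale, which corrects for effective length, Pcna was at 115 to 196 in uncontrolled cultures and 310 to 635 under paradoxical feedback. In uncontrolled cultures Cdc45 followed at 20.02 to 33.0 TPM, above Cdk2 (8.23 to 13.6 TPM) and Cdt1 (5.20 to 10.5 TPM), whose ranges overlapped. Ccnd1 was at most at 1.38 TPM there. Under paradoxical feedback Cdk2 came second at 35.3 to 76.2 TPM, with Cdc45 at 23.9 to 45.7, Cdt1 at 12.7 to 35.5 and Ccnd1 at 3.70 to 12.2 TPM. The ranges of Cdk2 and Cdc45, and of Cdc45 and Cdt1, overlapped. In negative feedback cultures 3 to 7 Cdk2 stood at 91.99 to 116 TPM and Cdc45 was the lowest but for Cdc6, at 16.7 to 34.2 TPM, below Cdt1 (36.5 to 51.4 TPM) and overlapping Ccnd1 (29.7 to 50.3 TPM). Negative feedback cultures 1 and 2 and the parental library had the same order of medians as the uncontrolled cultures.

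**Figure D1:**
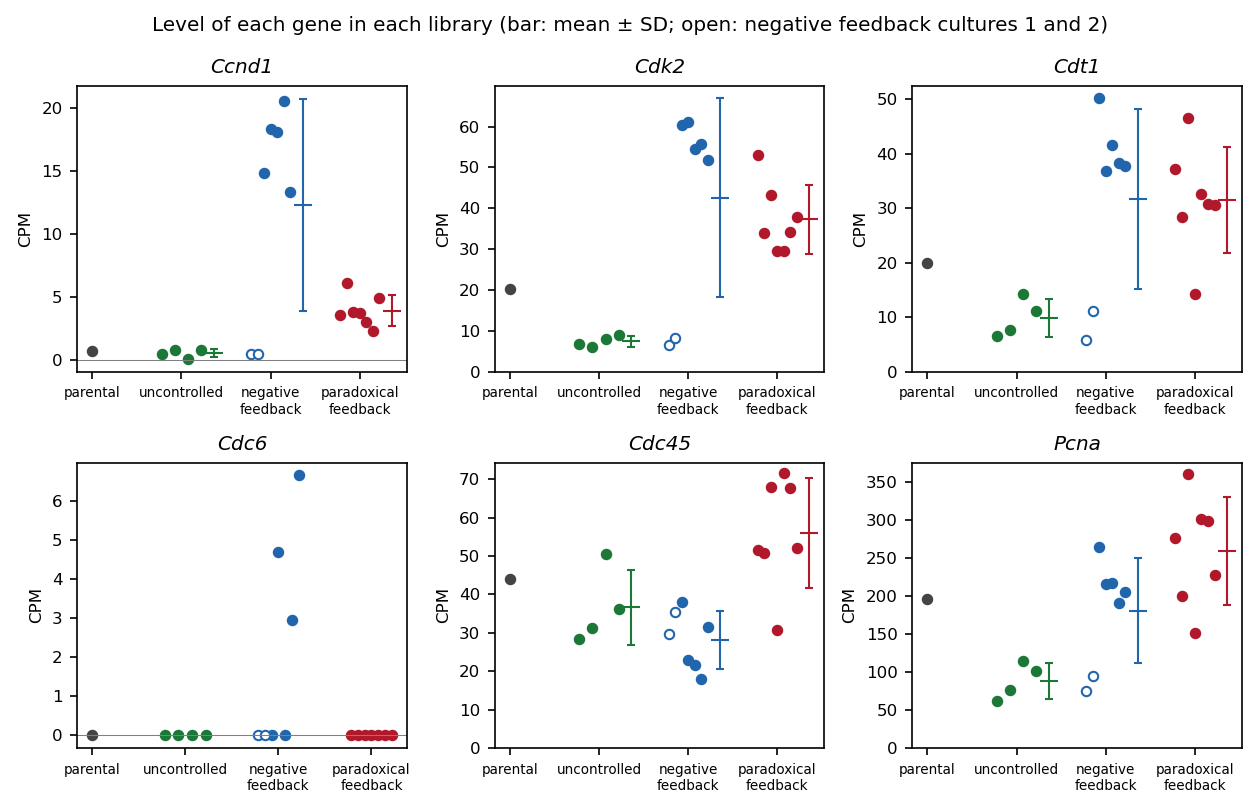
Reads scaled to a common total (CPM, vertical axes from 0) of the 6 genes in each of 19 libraries by culture condition, with mean ± SD beside each group of 4 or 7 except for Cdc6. Open circles are negative feedback cultures 1 and 2, which lie with the uncontrolled cultures for Ccnd1, Cdk2, Cdt1 and Pcna, while all 7 paradoxical feedback cultures lie above all 4 uncontrolled ones for these genes.

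Among the G1 regulators, Cdk2 rose under both feedback conditions. Cdk2, the kinase that cyclins E and A drive through the G1/S transition, was at 6.82, 6.06, 8.06 and 9.04 CPM in uncontrolled cultures 1 to 4. Under paradoxical feedback it was at 29.5 at the lowest, 34.3 at the median and 53.1 CPM at the highest. Every paradoxical feedback culture therefore lay above every uncontrolled culture. The log2 fold change was 2.32 ± 0.53 (SE, edgeR adjusted p = 0.0212), from 7.496 ± 1.32 CPM (SD, n = 4) to 37.4 ± 8.44 CPM (SD, n = 7). Negative feedback cultures 1 and 2 had 6.60 and 8.17 CPM of Cdk2, whereas cultures 3 to 7 had 51.9 to 61.0 CPM. The first pair lay within the uncontrolled range, and the other 5 lay above all uncontrolled cultures and above all paradoxical ones but culture 1. Over all 7 the log2 fold change against uncontrolled cultures was 2.50 ± 0.54 (edgeR adjusted p = 0.0236), at a mean of 42.6 ± 24.3 CPM (SD, n = 7). Without cultures 3 to 7 it was -0.02 (edgeR adjusted p = 1), and without cultures 1 and 2 it was 2.897 (edgeR adjusted p = 1.40e-07). Here and for the members below, the cultures left out were chosen with these values known, so such p-values are no test. The parental library was at 20.3 CPM, above all 4 uncontrolled cultures and below all 7 paradoxical ones.

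The cyclin D1 record gave the widest range, as a fold, of the 5 members detected in every library. Ccnd1, the gene of cyclin D1, was at 0.4931, 0.758, 0.0790 and 0.760 CPM in uncontrolled cultures 1 to 4 and at 0.671 CPM in the parental library, and these rest on 1.12 to 8.67 estimated counts. Negative feedback cultures 1 and 2 had 0.446 and 0.486 CPM, whereas cultures 3 to 7 had 13.3 to 20.6 CPM. Paradoxical feedback cultures lay between, at 2.30 at the lowest, 3.70 at the median and 6.14 CPM at the highest, with no overlap with either the uncontrolled cultures or negative feedback cultures 3 to 7. Against uncontrolled cultures the record was called higher under negative feedback, by 4.53 ± 1.01 on the log2 scale (edgeR adjusted p = 0.0236). Under paradoxical feedback the value was 2.89 ± 0.93 and did not pass (edgeR adjusted p = 0.0679). It passed in 6 of 27 alternative fits. These include DESeq2, at 2.87 (DESeq2 adjusted p = 0.00607), and only the groups compared, at 2.88 (edgeR adjusted p = 0.00694). With limma-voom it was at 3.10 and did not pass (limma-voom adjusted p = 0.213). Without negative feedback cultures 3 to 7 the value for negative feedback was -0.16 (edgeR adjusted p = 1), and without cultures 1 and 2 it was 4.99 (edgeR adjusted p = 5.89e-06). The record passed the filter on low counts only through paradoxical feedback cultures and negative feedback cultures 3 to 7. Its calls against uncontrolled cultures are therefore a description and no test. These values are those of 1 record with shared reads, so the level of cyclin D1 as a gene was not measured.

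Cdt1 rose in both feedback conditions, while the Cdc6 record was detected in few libraries. Cdt1, the licensing factor that is destroyed in S phase, was at 6.49, 7.67, 14.2 and 11.2 CPM in uncontrolled cultures 1 to 4. It was at 14.4 at the lowest, 30.9 at the median and 46.5 CPM at the highest under paradoxical feedback. The groups did not overlap, but paradoxical feedback culture 4 at 14.4 CPM was close to uncontrolled culture 3. Negative feedback cultures 1 and 2 had 5.89 and 11.2 CPM, whereas cultures 3 to 7 had 36.9 to 50.2 CPM. The log2 fold change against uncontrolled cultures was 1.67 ± 0.49 under paradoxical feedback (edgeR adjusted p = 0.0492) and 1.68 ± 0.49 under negative feedback (edgeR adjusted p = 0.0389). Both calls were near the threshold. Without negative feedback cultures 3 to 7 the second value was -0.21 (edgeR adjusted p = 1), and without cultures 1 and 2 it was 2.03 (edgeR adjusted p = 7.82e-05). The parental library was at 19.9 CPM, above all 4 uncontrolled cultures.

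Cdc6, the ATPase that loads the helicase together with Cdt1, was listed at 0 in the parental library, all uncontrolled and all paradoxical feedback cultures. A count of 0 allows up to 3 counts per library, or 0.232 to 0.294 CPM in these groups, by counting error only. Negative feedback cultures 4, 6 and 7 held 61.4, 32.4 and 85.1 estimated counts, or 4.71, 2.97 and 6.66 CPM. Cultures 1 and 2 were at 0, and cultures 3 and 5 held under 1 estimated count. Against the floor of 3 counts per library, the mean of 2.05 CPM under negative feedback was at least 8.02-fold higher than in uncontrolled cultures. The median under negative feedback was 0 CPM. That mean comes from cultures 4, 6 and 7, through which alone the record passed the filter, so no direction is read from it. The difference did not pass (edgeR adjusted p = 0.130), nor without cultures 1 and 2 (edgeR adjusted p = 0.0551), and without cultures 3 to 7 the record was at 0 in every library. Because its reads are divided among similar transcripts, a 0 in this record does not show that the gene was silent.

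Cdc45 and Pcna, which act after licensing, differed in their pattern. Pcna, the sliding clamp, was at 62.4, 76.7, 115 and 101 CPM in uncontrolled cultures 1 to 4 and at 196 CPM in the parental library. Under paradoxical feedback it was at 151 at the lowest, 276 at the median and 360 CPM at the highest, all above the uncontrolled cultures. The log2 fold change was 1.55 ± 0.33 (edgeR adjusted p = 0.0168), from 88.7 ± 23.6 CPM (SD, n = 4) to 259 ± 70.4 CPM (SD, n = 7). Negative feedback cultures 1 and 2 were at 75.6 and 95.01 CPM, and cultures 3 to 7 were at 190 to 264 CPM. Over all 7 the log2 fold change was 1.02 ± 0.32, which missed the threshold (edgeR adjusted p = 0.0506). Without cultures 1 and 2 it was 1.28 (edgeR adjusted p = 0.000454), and without cultures 3 to 7 it was -0.05 (edgeR adjusted p = 1).

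Cdc45, a part of the active CMG helicase, was the only member with a mean under negative feedback below that of uncontrolled cultures. It was at 28.4, 31.3, 50.6 and 36.2 CPM in uncontrolled cultures 1 to 4, at 29.6 and 35.5 CPM in the first pair of negative feedback cultures and at 17.99 to 38.0 CPM in the other 5. The ranges overlapped, and the log2 fold change of -0.38 ± 0.24 did not pass (edgeR adjusted p = 0.291), nor did that of -0.17 without cultures 3 to 7 or of -0.49 without cultures 1 and 2 (edgeR adjusted p = 1 and 0.147). Under paradoxical feedback it was at 30.6 at the lowest, 52.1 at the median and 71.6 CPM at the highest. Of these 7 cultures 6 lay above every uncontrolled culture, and culture 4 was the exception. The log2 fold change of 0.61 ± 0.25 did not pass either (edgeR adjusted p = 0.138). The parental library was at 44.0 CPM, within the uncontrolled range.

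In number, 3 of 6 members were called higher under negative feedback (Cdk2, Ccnd1 and Cdt1) and 3 of 6 under paradoxical feedback (Cdk2, Cdt1 and Pcna), and none was called lower. All 6 passed the filter on low counts, Cdc6 only through 3 negative feedback cultures. Ccnd1 passed only through paradoxical feedback cultures and negative feedback cultures 3 to 7, where it is high. The counts here that include Ccnd1 carry that limit. Over all 28555 tested targets, 8.65% were called higher and 1.11% lower under negative feedback, and 4.93% higher and 1.5% lower under paradoxical feedback. Targets with a symbol were called more often, with 28.2% higher under negative and 19.7% under paradoxical feedback. Of all targets 7.94% had every paradoxical feedback culture above every uncontrolled culture, as had 4 of the 6 members (Ccnd1, Cdk2, Cdt1 and Pcna). Under negative feedback 0 of 6 members and 1.67% of all targets had no such overlap. Over the 5 members other than Cdc6, the middle log2 fold change under negative feedback was that of Cdt1, 1.68, and the median under paradoxical feedback was 1.67. The medians were 0.04 and 0.02 for all tested targets and 0.44 and 0.55 for targets with a symbol. They were 0.84 and 0.70 for those with a symbol and a length that is a multiple of 3. Cdc6 was left out because it passed the filter only through negative feedback cultures. Ccnd1 was kept, under the limit given above. Both comparisons share the 4 uncontrolled cultures.

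Many of these calls were lost when any 1 uncontrolled culture was left out, as were most calls over all targets, while the log2 fold changes moved little. All groups share 1 estimate of the spread, so leaving out a library of another condition also moved the p-values. Without uncontrolled culture 1, 2, 3 or 4, no member was called under negative feedback. Over all targets these fits called 14, 7, 7 and 15, against 2787 with every library. The log2 fold change of Cdk2 stayed at 2.41 to 2.61, that of Ccnd1 at 4.18 to 4.77 and that of Cdt1 at 1.52 to 1.91. The edgeR adjusted p ran from 0.0525 to 0.0774 for Cdk2 and Ccnd1 and from 0.0721 to 0.116 for Cdt1 in those fits. Under paradoxical feedback Pcna lost its call without uncontrolled culture 1 or 2 (edgeR adjusted p = 0.0696 and 0.0630). Cdk2 lost it without any 1 of the 4 (edgeR adjusted p from 0.0531 to 0.0750, log2 fold change 2.22 to 2.42). Over all targets, the paradoxical feedback calls without uncontrolled culture 1, 2, 3 or 4 were 127, 150, 644 and 546, against 1835 with every library. Cdt1 under paradoxical feedback lost its call in 15 of the 18 fits that leave out 1 library (each uncontrolled culture, negative feedback cultures 3 to 7 and paradoxical feedback cultures 1 to 3 and 5 to 7), at log2 fold changes of 1.51 to 1.90. Cdt1 under negative feedback was also lost without negative feedback culture 3, 4, 5, 6 or 7 or paradoxical feedback culture 6 (edgeR adjusted p from 0.0507 to 0.0732). With only the groups compared, Cdk2, Pcna and Cdt1 kept their calls under paradoxical feedback (edgeR adjusted p = 0.0001835, 0.0019 and 0.00458). The log2 fold changes there were 2.31, 1.54 and 1.66. Under negative feedback that kind of fit called 0 members.

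**Figure D2:**
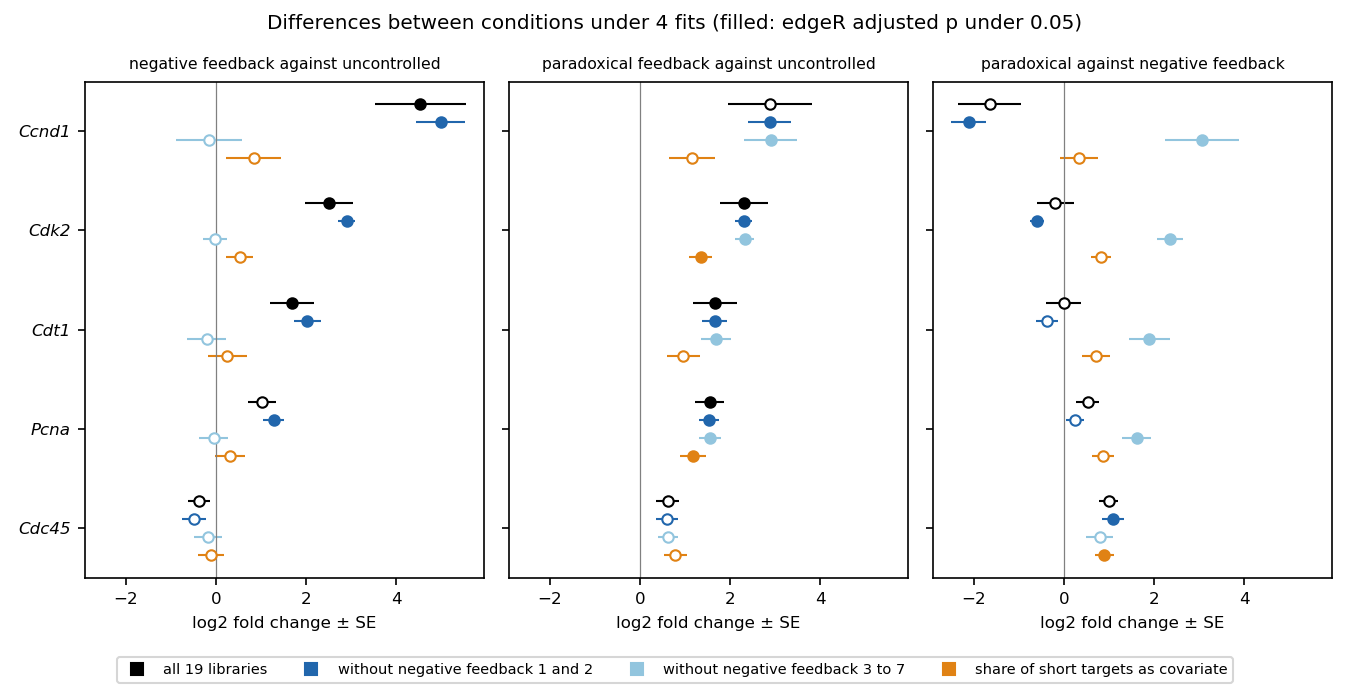
Log2 fold changes with standard errors (horizontal axes) of 5 genes in the 3 comparisons under 4 edgeR fits, where filled points passed an adjusted p of 0.05. Under negative feedback the values of Ccnd1, Cdk2, Cdt1 and Pcna fall to near 0 without cultures 3 to 7, whereas those under paradoxical feedback stay between 1.5 and 3 in the 3 fits without the covariate.

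Between the feedback conditions, 0 of 6 members were called by edgeR, where 0.27% of all targets were called. At an unadjusted p under 0.05 there were 3, namely Ccnd1, Cdc6 and Cdc45 (17.6% of all targets), and DESeq2 and limma-voom each called 1, Cdc45. Nothing is read from Cdc6 here, since it passed the filter only through negative feedback cultures. Cdc45 was higher under paradoxical feedback by 0.99 ± 0.21 on the log2 scale, at 56.1 ± 14.3 against 28.2 ± 7.48 CPM (SD, n = 7 each), and just missed the threshold (edgeR adjusted p = 0.0548). Of the 7 paradoxical feedback cultures 6 lay above every negative feedback culture. Without negative feedback culture 1, without culture 2 or without paradoxical feedback culture 4 it passed, at 1.00, 1.06 and 1.10 (edgeR adjusted p = 0.0294, 0.0260 and 0.0201). For Cdk2 the difference was -0.19, with a 95% interval of -1.05 to 0.67 (edgeR adjusted p = 0.899), and for Cdt1 it was -0.01, with an interval of -0.82 to 0.80 (edgeR adjusted p = 1.00). Negative feedback joined 2 cultures within the uncontrolled range of Cdk2 and 5 above it. Pcna differed by 0.52 ± 0.26 (edgeR adjusted p = 0.317) and Ccnd1 by -1.65 ± 0.70 (edgeR adjusted p = 0.230).

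For Cdk2, Ccnd1 and Cdt1 the direction of this difference depended on which negative feedback cultures were kept. Cdc45 and Pcna were higher under paradoxical feedback against either set in these fits, though for Pcna the TPM scale gave another order. Against cultures 1 and 2 alone, paradoxical feedback was higher by 2.35 for Cdk2, 3.05 for Ccnd1, 1.89 for Cdt1 and 1.61 for Pcna (edgeR adjusted p = 0.00154, 0.0382, 0.0244 and 0.0116), so that 4 members were called. In that fit Ccnd1 passed the filter only through paradoxical feedback cultures, so nothing is read from its call. Over all targets the fit against cultures 1 and 2 alone called 2454 of 27303, and the fit against cultures 3 to 7 alone called 5937 of 28401. Against cultures 1 and 2 alone, Cdc45 was higher by 0.79 and did not pass (edgeR adjusted p = 0.134). Against cultures 3 to 7 alone, the paradoxical difference was -0.60 for Cdk2, -2.11 for Ccnd1 and 1.09 for Cdc45 (edgeR adjusted p = 0.0121, 0.00150 and 0.00476). Cdt1 (-0.37) and Pcna (0.25) did not pass (edgeR adjusted p = 0.300 and 0.401). Cdc6 was also called there, but nothing is read from that call, since the record passed the filter only through negative feedback cultures 4, 6 and 7 and the cultures left out were at 0. Because cultures 1 and 2 were set apart by the values of these libraries, the fits describe them and are no test of a kind of culture. On the TPM scale the Pcna ranges of negative feedback cultures 3 to 7 (457 to 623) and paradoxical feedback (310 to 635) overlapped as well. The TPM medians of Pcna went the other way, at 508 in negative feedback cultures 3 to 7 and 475 under paradoxical feedback. No direction for Pcna is therefore read between these 2 sets.

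Within a library, the members stood in different proportions between conditions. The ratio of Cdk2 to Pcna CPM was 0.0702 to 0.109 with uncontrolled growth and 0.0981 to 0.195 with paradoxical feedback. It was 0.0860 to 0.0874 in the first pair of negative feedback cultures and 0.229 to 0.293 in the other 5. The ratio of Cdc45 to Pcna ran the other way, at 0.359 to 0.456 in uncontrolled cultures, 0.187 to 0.254 under paradoxical feedback and 0.0947 to 0.153 in negative feedback cultures 3 to 7. Of the 3 ratios to Pcna, only for that of Cdc45 did uncontrolled and paradoxical feedback cultures not overlap. The ratio of Cdt1 to Pcna was more even, at 0.1 to 0.124 in uncontrolled cultures and 0.0948 to 0.142 under paradoxical feedback, with 0.171 to 0.202 in negative feedback cultures 3 to 7. The parental library had 0.104 for Cdk2, 0.101 for Cdt1 and 0.225 for Cdc45. A ratio of this kind compares libraries for 1 pair of genes and not the levels of the genes, since it is not corrected for length.

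**Figure D3:**
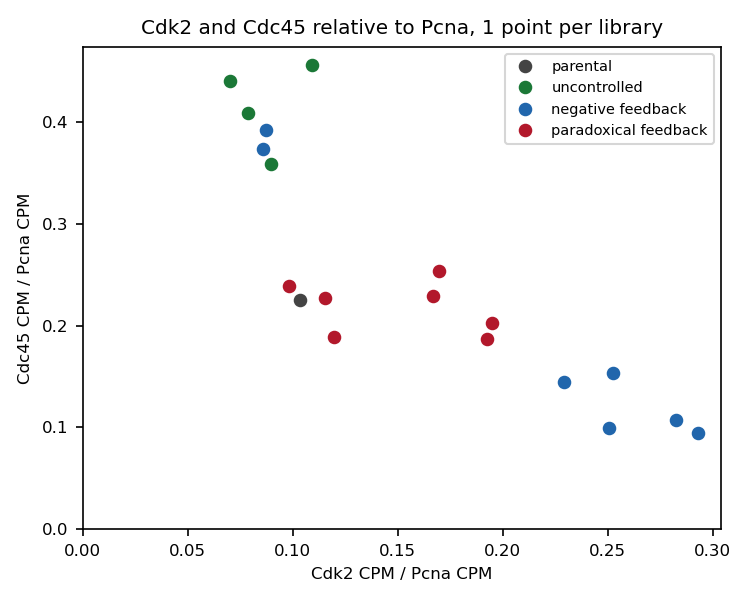
Ratio of Cdk2 to Pcna CPM (horizontal) against ratio of Cdc45 to Pcna CPM (vertical), 1 point per library, both axes from 0. Negative feedback cultures 3 to 7 lie at 0.229 to 0.293 and 0.0947 to 0.153, cultures 1 and 2 lie with the uncontrolled cultures, and the parental library lies with the paradoxical feedback cultures.

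Under negative feedback the share of counts on short targets was low where Ccnd1, Cdk2, Cdt1 and Pcna were high. Cdc45 was not divided in this way, at 29.6 and 35.5 CPM in cultures 1 and 2 and 17.99 to 38.0 CPM in cultures 3 to 7. Its highest value in any library, 71.6 CPM, was in paradoxical feedback culture 5, at a share of 12.4%. Within paradoxical feedback none of the 5 members tested had a relation with the share that passed after adjustment. Ccnd1 was highest in negative feedback cultures 3 to 7, the libraries with the lowest share. The uncontrolled cultures and negative feedback cultures 1 and 2, at 12.2 to 14.1%, had the lowest values of Cdk2, Pcna and Cdt1. With the share as a covariate, the log2 fold changes under negative feedback were 0.53 for Cdk2, 0.83 for Ccnd1, 0.25 for Cdt1 and 0.31 for Pcna, and none passed (edgeR adjusted p from 0.799 to 1). Under paradoxical feedback Cdk2 (1.34, edgeR adjusted p = 0.0134) and Pcna (1.17, edgeR adjusted p = 0.0328) passed in that fit, and Cdt1 (0.96, edgeR adjusted p = 0.158) and Ccnd1 (1.16, edgeR adjusted p = 0.223) did not. Paradoxical feedback culture 5, at 12.4%, had a share within the range of uncontrolled cultures. Its values were 29.5 CPM for Cdk2, 32.6 CPM for Cdt1, 300.3 CPM for Pcna and 3.03 CPM for Ccnd1, each above every uncontrolled culture. Among paradoxical feedback cultures, culture 5 had the highest share and the lowest Cdk2, with culture 4 also at 29.5 CPM. Cultures 6 and 5, with shares of 11.4 and 12.4%, had the lowest Ccnd1. For Pcna only culture 3 was above culture 5, and for Cdt1 cultures 1 and 3 were. What set these values was not tested. Under negative feedback the low share and the higher values of Cdk2, Ccnd1, Cdt1 and Pcna fell in the same 5 libraries and cannot be told apart.

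**Figure D4:**
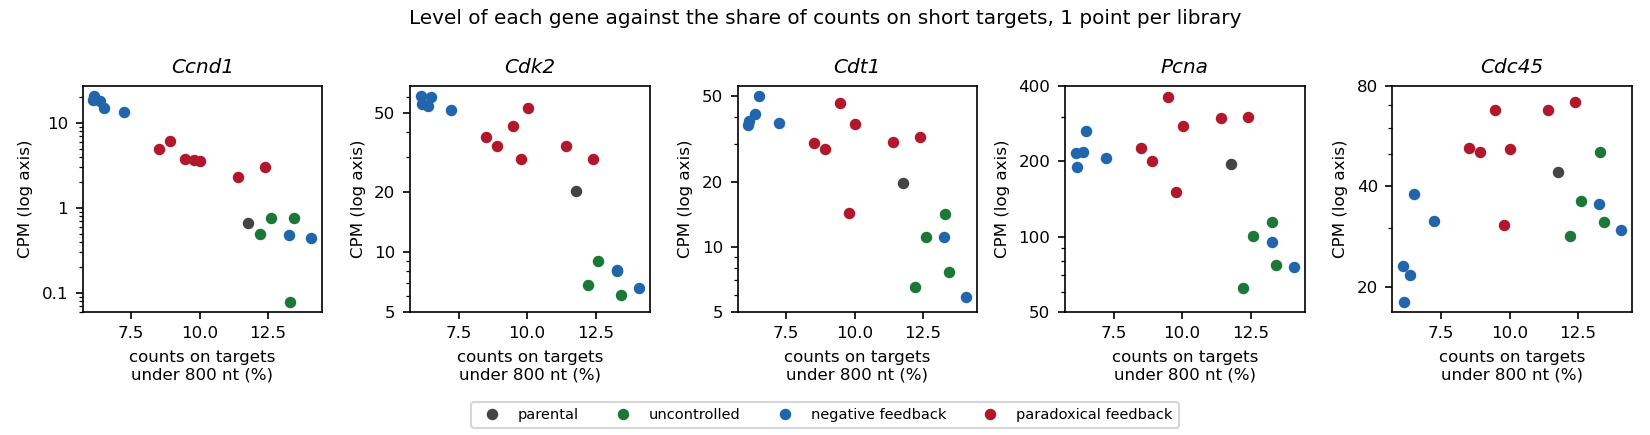
CPM of 5 genes (vertical, log axes) against the percentage of counts on targets under 800 nt (horizontal), 1 point per library. Negative feedback cultures 3 to 7 lie at 6.12 to 7.22% with the highest Ccnd1 values, and paradoxical feedback culture 5 at 12.4% lies among the uncontrolled cultures on the horizontal axis and above them for Ccnd1, Cdk2, Cdt1 and Pcna. Within paradoxical feedback, culture 5 is the lowest for Cdk2 and next to lowest for Ccnd1.

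Within paradoxical feedback, Pcna correlated with Cdc45 and with Cdt1 by Pearson's r, and no rank correlation passed. Culture 4 was the lowest for all 3, at 151, 14.4 and 30.6 CPM, and culture 3 the highest for Pcna and Cdt1, at 360 and 46.5 CPM. Over the 7 cultures, log2 CPM of Pcna correlated with that of Cdc45 at Pearson's r = 0.92 (exact two-sided permutation p = 0.00357, adjusted 0.0268) and Spearman's rho = 0.93 (exact p = 0.00675, adjusted 0.0506). Pcna and Cdt1 gave r = 0.91 (exact permutation p = 0.00298, adjusted 0.0268) and rho = 0.89 (exact p = 0.0123, adjusted 0.0615). These were 2 of 15 relations among 5 members and the share of short targets, with p-values adjusted over the 15 by the Benjamini-Hochberg method. They were computed after the values had been seen. The 2 cultures farthest from the median of 1 gene of each pair were then left out, Cdc45 for both of its pairs and Cdt1 for Cdt1 with Pcna. After that r was 0.83 for Cdc45 with Pcna and 0.60 for Cdt1 with Pcna. Leaving out the extremes of 1 gene narrows its range and tends to lower r. These values therefore do not show which cultures a relation rests on. Cdc45 with Cdt1 gave r = 0.85 and rho = 0.71 (exact permutation p = 0.0353 and 0.0881, adjusted 0.132 and 0.330), and r was 0.49 without 2 cultures. No relation of Cdk2 or Ccnd1 with another member passed, the strongest being Cdk2 with Cdt1 at r = 0.64 and rho = 0.57 (exact permutation p = 0.131 and 0.200, adjusted 0.394 and 0.589). Ccnd1 against the share of short targets had r = -0.81 and rho = -0.93 (exact permutation p = 0.0256 and 0.00675, adjusted 0.128 and 0.0506). In the 4 uncontrolled cultures Pcna, Cdt1 and Cdc45 also had one order, with culture 1 the lowest, then 2, 4 and 3, and Cdk2 had another.

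Other genes of the cycle were read from 4 lists of G1 regulators, licensing and helicase factors, fork and precursor enzymes, and mitosis genes. Of 120 listed genes beyond the members, 17 had a named and tested target. Under negative feedback 4 of the 17 were called higher and 0 lower, and under paradoxical feedback again 4 and 0, with median log2 fold changes of 0.55 and 0.79. Of all targets with a symbol 28.2% and 19.7% were called higher, so these counts are near the background. In the direct comparison 0 were called by edgeR. The counts describe the targets with a symbol alone.

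Among other G1 regulators, Cdc25a, the phosphatase that activates CDK2, rose under negative feedback by 2.94 ± 0.78 (edgeR adjusted p = 0.0290). Cultures 1 and 2 had 1.87 and 2.43 CPM, whereas cultures 3 to 7 had 18.03 to 52.8 CPM, against 1.48 to 5.58 CPM in uncontrolled cultures. Under paradoxical feedback it was at 5.87 to 21.0 CPM, lowest in culture 4, and did not pass (2.13 ± 0.74, edgeR adjusted p = 0.0872). Cdkn1b, the inhibitor p27 of cyclin E with CDK2, had 15.3 ± 3.22 CPM with uncontrolled growth (SD, n = 4), and 21.5 ± 4.22 and 22.4 ± 8.82 CPM with negative and paradoxical feedback (SD, n = 7 each), and neither difference passed (edgeR adjusted p = 0.222 and 0.215). Its highest value, 39.5 CPM, was in paradoxical feedback culture 4.

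Of 6 other licensing factors, Dbf4, the activating subunit of the CDC7 kinase that fires licensed origins, rose under negative feedback by 0.90 ± 0.24 (edgeR adjusted p = 0.0290), from 42.4 to 51.7 CPM in uncontrolled cultures to 103 to 113 CPM in cultures 3 to 7 (51.7 and 49.9 CPM in cultures 1 and 2). Under paradoxical feedback its value of 0.78 ± 0.24 did not pass (edgeR adjusted p = 0.0570). Its partner Cdc7, with shared reads, was at -0.06 ± 0.21 and 0.28 ± 0.21. Subunits of the origin recognition complex, all with shared reads, went in different directions without passing. Orc1 had values of 1.30 ± 0.52 under negative and 1.57 ± 0.53 under paradoxical feedback (edgeR adjusted p = 0.109 and 0.0791), Orc2 of -1.61 ± 0.50 and -0.32 ± 0.51 (0.0525 and 0.754), Orc4 of -0.71 ± 0.50 and -0.94 ± 0.50 (0.333 and 0.241), and Orc5 of 0.10 ± 0.19 and 0.30 ± 0.19 (0.733 and 0.339).

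Among fork and precursor genes, Tk1, the thymidine kinase that salvages a DNA precursor, rose under paradoxical feedback by 1.64 ± 0.41 (edgeR adjusted p = 0.0296, shared reads) and was at 0.93 ± 0.40 under negative feedback (edgeR adjusted p = 0.129). Paradoxical feedback culture 4 was lowest for Tk1 too, at 43.7 CPM, within the uncontrolled range of 19.2 to 52.4 CPM. Top1, the topoisomerase that relaxes DNA ahead of forks, was at 0.35 ± 0.18 in both (edgeR adjusted p = 0.195 and 0.232). Of 5 mitosis genes, Cdc25b and Top2a were called under negative feedback and Cdc25b and Kif23 under paradoxical feedback. Cdc25b, a phosphatase of mitotic entry, had log2 fold changes of 2.12 ± 0.43 and 1.93 ± 0.43 (edgeR adjusted p = 0.0236 and 0.0197). Negative feedback cultures 1 and 2 had 13.03 and 14.89 CPM of Cdc25b, within the uncontrolled range of 9.57 to 14.96 CPM, whereas cultures 3 to 7 had 56.7 to 81.0 CPM. Top2a was divided in the same way, at 343 and 297 CPM against 951 to 1399 CPM. Top2a had 1.48 ± 0.37 and 1.00 ± 0.36 (edgeR adjusted p = 0.0257 and 0.0989), and Kif23, a kinesin of cytokinesis, had 0.42 ± 0.22 and 0.79 ± 0.22 (edgeR adjusted p = 0.194 and 0.0427).

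Among 237 other named targets of mean log2 CPM 1 or more, those with the pattern most like each member over the 19 libraries were found by Pearson's r of log2 CPM, given as a description. For Cdk2 they were Cdc25b (r = 0.98), Dicer1 and Parp1 (both 0.98), where the median over the 237 was 0.58. For Ccnd1 they were B4galt1 (0.97), Gna11 and Noc3l (both 0.96), with a median of 0.48. For Cdt1 they were Orc1 (0.96), Hsph1 (0.96) and Dicer1 (0.95), with a median of 0.52, and for Pcna Hspa8 (0.96), Tuba1b (0.95) and Orc1 (0.94), with a median of 0.50. Cdc45 was most like Xrcc1 (0.91), Oaz1 (0.87) and Ercc1 (0.85), against a median of 0.06, and Cdc6 reached at most 0.68, with Srebf2. All targets share the same 19 libraries, which fall into separate sets, and Dicer1, Gna11, Orc1 and Tuba1b have shared reads.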

How the data were processed

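Polyadenylated RNA of 19 libraries was prepared with a Qiagen RNA kit and the NEBNext Ultra II library kit, per the labels' protocols. Trim Galore and kallisto are named in the submitters' processing notes, without versions, and the sources used here give neither the genome build nor the index annotation. Per the file headers, the deposited tables hold an estimated count and a TPM for each of 46718 transcript targets. An estimated count, as the authors deposited it, gives the reads assigned to 1 target, whole or in part, and the deposited TPM divides it by effective length and scales to a common total. No reads were pooled across libraries.

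RefSeq accessions were paired with symbols by a gene table of assembly CriGri-PICRH-1.0, used for names only, which matched 528 targets (527 with the same version), 334 of them protein coding. Most targets have no symbol, so every value is that of a target and not a sum over a gene. Estimated counts were rounded, filtered with filterByExpr (28555 targets left), normalised with TMM factors and tested by the quasi-likelihood method of edgeR 4.0.16 (R 4.3.3), with 1 coefficient per group over the 19 libraries. Benjamini-Hochberg adjustment covered every tested target, and calls were made at an adjusted p under 0.05. Standard errors were derived from the log2 fold change and the F statistic. CPM uses the TMM-scaled total. A target was whole where its count was whole within 1e-06 in every library. The test was tested on simulated data with known changes, at 1 spread for all targets and with no split inside a group. That check therefore does not cover a group divided as negative feedback was. Alternatives were DESeq2 1.42.0, limma-voom (limma 3.58.1), scaling by total alone, no filter beyond 1 count, only the groups compared, the replicate number as a block, the share of counts on targets under 800 nt as a covariate, and leaving out libraries. No 2 libraries of a group agreed within sampling noise (the smallest chi-square per target was 18.8). Correlations within a group used all 5040 pairings.

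The members, lists and the libraries left out together were chosen with earlier results of these data known. The named genes are the 6 members, up to 4 called genes per list and direction, those on which a count turns, and the 3 targets most like each member of mean log2 CPM 1 or more. Promoter and protein sequences were not used here, and some genes of the lists, counted in the totals, are not reported here. Intervals and floors cover counting error or the spread of the fit only.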

Additional observations from a re-analysis of the deposited data

How the results depend on the processing

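For the 17 log2 fold changes of members, each under up to 27 alternatives, 353 of 455 values kept direction and side of the threshold and 21 changed sign. Of those that kept direction, 59 lost the call and 22 gained it. The number of members called under negative feedback (3 of 6) became 0 with limma-voom, with only the groups compared, with the share of short targets as a covariate and without negative feedback cultures 3 to 7, and ran from 0 to 4 when 1 library was left out. Under paradoxical feedback (3 of 6) it became 1 with limma-voom and ran from 0 to 4. In the direct comparison (0 of 6) it became 1 with DESeq2, limma-voom or the covariate and 4 without either negative feedback cultures 3 to 7 or cultures 1 and 2, and ran from 0 to 1. The 4 without cultures 1 and 2 include Cdc6, from which nothing is read. The 4 without cultures 3 to 7 include Ccnd1, which passed the filter there only through paradoxical feedback cultures.

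Over all targets, the 2787 calls under negative feedback (2470 higher, 317 lower) became 6444 with DESeq2 (4887 and 1557), 5039 with limma-voom (1637 and 3402), 10 with only the groups compared, 6 with the covariate, 13 without cultures 3 to 7 and 11460 without cultures 1 and 2, and ran from 7 to 6938 when 1 library was left out. The 1835 calls under paradoxical feedback (1408 and 427) became 4829 with DESeq2 (3097 and 1732), 4956 with only the groups compared, 1145 with the covariate, 4926 without cultures 3 to 7 and 5675 without cultures 1 and 2, and ran from 127 to 3204. Scaling by total alone split them 905 and 521, and limma-voom 1082 and 1507. The 77 calls of the direct comparison became 1800 with DESeq2, 297 with limma-voom, 42 with scaling by total alone, 2 without the filter, 0 with only the groups compared, 697 with the covariate, 2454 without cultures 3 to 7 and 5937 without cultures 1 and 2, and ran from 0 to 989. Beyond the fits with fewer samples, the cause was not tested.

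Signs changed as follows. Against uncontrolled growth without negative feedback cultures 3 to 7, Ccnd1 was at -0.16, Cdk2 at -0.019, Cdt1 at -0.21 and Pcna at -0.054. In the direct comparison Ccnd1 was at 0.33 with the covariate and 3.05 without cultures 3 to 7. Cdk2 there was at 0.16 with limma-voom, 0.82 with the covariate and 2.35 without cultures 3 to 7, and Cdt1 at 0.17, 0.71 and 1.89. Cdt1, at -0.01 in the reported fit, ran from -0.19 to 0.14 when 1 library was left out.

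The replicate numbers did not pair the samples. Over 15 same-numbered pairs the correlation of deviations from the group means ran from -0.16 to 0.11, and in 2 of the 15 a sample was most like its own number. With the replicate number as a block, 4, 3 and 0 targets and 0, 0 and 0 members were called in the 3 comparisons, and Cdk2 and Cdt1 in the direct comparison were at 0.038 and 0.18.

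Few counts limit the precision of Ccnd1 in uncontrolled cultures and of Cdc6 in the libraries at or near 0.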
